A study of Mus musculus with 2 samples.

Results

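Ptgs2-positive mature neutrophils are the cells of 2 single-cell libraries that carry at least 1 transcript count of Ptgs2, the gene of the prostaglandin synthase COX-2, together with the marks of a neutrophil that has left the granule-forming stages. They were chosen by these values: at least 1 Csf3r count, S100a8 and S100a9 at 0.5% or more of all counts, Camp, Ngp and Ltf together under 1% of counts, at least 1 Ptgs2 count, at most 1 count of Cd3d, Cd3e and Cd3g, and no count of Cd79a or Csf1r. Counts are unique molecular identifiers (UMIs), each standing for 1 captured transcript. The rule found 954 cells among 25814 kept cells, 378 of 14201 under lenvatinib and 576 of 11613 under combo. Mature neutrophils that met every other limit but had no Ptgs2 count (127 under lenvatinib and 426 under combo) are called Ptgs2-negative, and cells that passed the other limits, with or without Ptgs2, but had Camp, Ngp and Ltf at 1% or more (46 and 250) are called granule-high.

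The cells came from Trp53KO/MYCOE liver tumors of male wild-type C57BL/6J mice, which were aged 6 to 8 weeks when taken for the model. Hydrodynamic injection brought human C-MYC, a guide RNA plasmid against Trp53 (PX330-sg-p53) and sleeping beauty transposase into the liver. All mice had 30 mg/kg lenvatinib, an inhibitor of growth factor receptor kinases, for 25 days from day 12 after the plasmids. They then had 30 mg/kg lenvatinib alone (lenvatinib) or with 100 mg/kg palbociclib, an inhibitor of CDK4 and CDK6 (combo), and live CD45+ cells of their tumors were sorted and sequenced. There was 1 library per condition and the number of mice in each is not given in the sources used here, so library and treatment cannot be told apart and no test between them was made. Intervals are exact 95% intervals and cover counting error only.

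Neutrophils leave the bone marrow after filling primary, secondary and tertiary granules in that order, and mature cells no longer transcribe most granule genes. In inflamed tissue they switch on a short-lived program of interleukin-1, chemokines and prostaglandin enzymes under NF-kB and stress kinase signals. COX-2 turns arachidonic acid into prostaglandin H2, which a terminal synthase such as that of Ptges makes into prostaglandin E2.

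Promoters are shown for Ptgs2, which chose the cells, for Il1b, the interleukin-1 beta gene named as their marker, and for Cxcl1, a neutrophil-attracting chemokine gene among the 15 highest ratios of Ptgs2-positive to Ptgs2-negative cells in both libraries. They run from 250 bases before to 50 bases after the start site, are given by RefSeq on build GRCm38.p6, and lie at chr1:150099781-150100080 (plus strand), chr2:129371090-129371389 (minus strand) and chr5:90890995-90891294 (plus strand). Capitals mark matches to NF-kB or C/EBP motifs.
Ptgs2: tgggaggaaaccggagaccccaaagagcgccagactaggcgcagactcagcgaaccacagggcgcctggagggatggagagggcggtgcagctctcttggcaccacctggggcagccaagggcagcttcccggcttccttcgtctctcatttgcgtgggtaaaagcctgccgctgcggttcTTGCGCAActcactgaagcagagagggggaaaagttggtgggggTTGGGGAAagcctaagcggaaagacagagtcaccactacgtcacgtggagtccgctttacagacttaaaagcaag
Il1b: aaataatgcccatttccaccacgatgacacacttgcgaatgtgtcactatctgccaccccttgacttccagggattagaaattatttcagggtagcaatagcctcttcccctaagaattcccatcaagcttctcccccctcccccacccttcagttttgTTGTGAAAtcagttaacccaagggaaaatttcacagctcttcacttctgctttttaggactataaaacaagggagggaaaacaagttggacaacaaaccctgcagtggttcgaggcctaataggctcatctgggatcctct
Cxcl1: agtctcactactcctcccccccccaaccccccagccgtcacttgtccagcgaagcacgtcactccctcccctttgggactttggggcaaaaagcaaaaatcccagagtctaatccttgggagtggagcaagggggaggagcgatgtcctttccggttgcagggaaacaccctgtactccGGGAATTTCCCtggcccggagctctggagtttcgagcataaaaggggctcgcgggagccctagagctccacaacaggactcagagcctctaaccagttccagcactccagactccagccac
The Ptgs2 promoter held 2 matches to the C/EBP pattern TTNNGNAA, 69 and 25 bases before the start, and the Il1b promoter held 1, 91 bases before the start. Cxcl1 held 2 overlapping matches to the NF-kB motif, which begin 71 and 70 bases before the start. None of the 3 held AP-1 (TGANTCA) or CRE (TGACGTCA). Of the other 2 genes searched, which were also among the 15 highest ratios in both libraries, Bcl2a1b held 1 AP-1 match. Ctla2a held 1 AP-1 match in each of its 2 promoters, which overlap, so both matches are the same site. Both strands were searched, and the C/EBP pattern was held by 40.7% of all 32851 RefSeq promoters, NF-kB by 8.46%, AP-1 by 7.81% and CRE by 1.79%, so these matches describe the sequences only, and no match says only that these letters are not in the window.

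The cells carried the transcripts of neutrophils that the rule did not use. Cxcr2, the receptor for chemokines of the CXCL1 and CXCL2 kind, had a UMI in 82.3% of the cells under lenvatinib and in 89.1% under combo. Il1r2, the decoy receptor for interleukin-1, was found in 92.6% and 93.1%, and Mmp9, a tertiary granule gelatinase, in 84.7% and 88.5%. Il1b, named as a marker of these cells, was found in 376 of 378 and in 576 of 576. Its level was 8889 and 10678 CPM, which are counts per 1000000 counts of the class. All 12 markers of mature neutrophils outside the rule had counts in both libraries, but so they did in T cells. They summed to 14307 and 24775 CPM, against 67.1 and 286 CPM in T cells and 19231 and 33532 CPM in Ptgs2-negative cells. Of the 12, 3 (Ly6g, Mmp8 and Retnlg) were past 2-fold lower than in Ptgs2-negative cells under lenvatinib and 0 under combo, and 0 were higher. Lineage markers of eosinophils were near the limit of detection, with Epx, the eosinophil peroxidase gene, at 0 counts in both libraries (a count of 0 allows up to 2.71 and 1.10 CPM). The T and NK cell list summed to 680 CPM (633 to 731) under lenvatinib and 225 CPM (208 to 244) under combo, and 21 and 13 cells held 5 or more of its UMIs. The B and plasma cell list summed to 235 and 107 CPM, the dendritic cell list to 158 and 81.6 CPM, the basophil and mast cell list to 36.1 and 20.6 CPM and the eosinophil list to 6.32 and 14.0 CPM. The monocyte and macrophage list summed to 522 CPM under lenvatinib and to 671 CPM under combo, and 30 and 104 cells held 5 or more of its UMIs. Genes of hepatocytes, endothelium and erythroid cells summed to 37.0 and 26.5 CPM. Scrublet called 16 of the cells (4.23%) doublets under lenvatinib and 8 (1.39%) under combo, against 4.46% and 2.76% of all kept cells.

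The libraries held 98107503 and 93583402 UMIs, and 308 and 376 barcodes were removed for over 6000 genes or over 25% mitochondrial UMIs. The Ptgs2-positive cells were small libraries, with a median of 2508.5 UMIs and 1011 genes under lenvatinib and 3870.5 UMIs and 1204.5 genes under combo. Ptgs2-negative cells had medians of 2482 and 5193.5 UMIs, so depth differed more between libraries than between classes under lenvatinib. Among kept cells 49 barcodes occurred in both libraries, and 3 of the 954 cells had a barcode of a kept cell in the other library.

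Ptgs2-positive mature neutrophils were a larger share of CD45+ cells under combo, and the other neutrophil classes differed by more. They were 2.66% (2.40 to 2.94) of kept cells under lenvatinib and 4.96% (4.57 to 5.37) under combo, a ratio of 1.86 (1.56 to 2.23). Ptgs2-negative cells were 0.894% (0.746 to 1.06) and 3.67% (3.33 to 4.03), a ratio of 4.10 (3.14 to 5.40). Granule-high cells were 0.324% (0.237 to 0.432) and 2.15% (1.90 to 2.43), a ratio of 6.65 (4.39 to 10.3). Within mature neutrophils the Ptgs2-positive share was therefore lower under combo, at 57.5% (54.4 to 60.6) against 74.9% (70.8 to 78.6) under lenvatinib. With each cell thinned to 1000 UMIs, which left out 20 shallower cells per library, the share was 37.8% (34.7 to 40.9) against 63.5% (59.0 to 67.8).

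**Figure D1:**
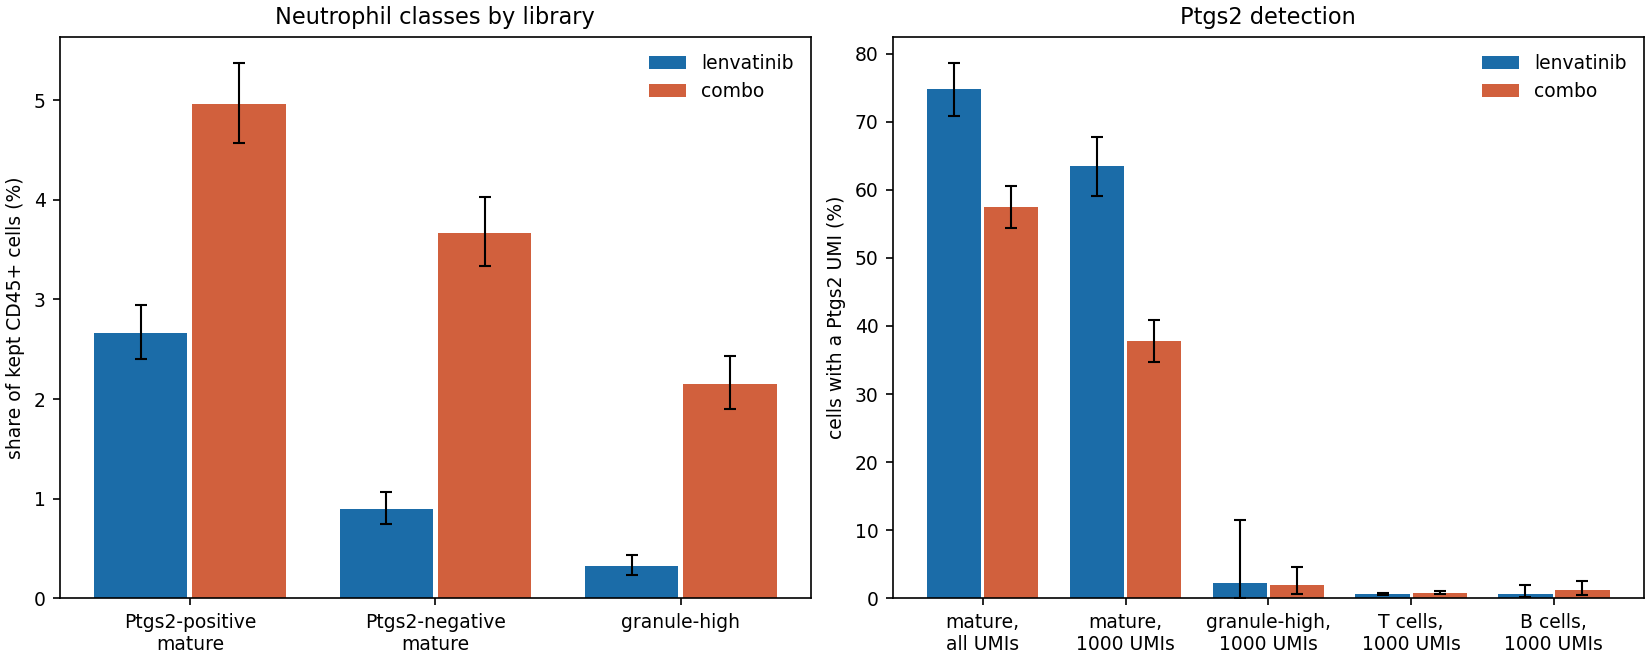
Left, share of kept CD45+ cells (%) in 3 neutrophil classes; right, share of cells with a Ptgs2 UMI (%) in mature neutrophils with all UMIs and with 1000 UMIs per cell, and in granule-high neutrophils, T cells and B cells with 1000 UMIs per cell. Bars are the lenvatinib (blue) and combo (orange) libraries and lines are exact 95% intervals of counting error. All 3 classes were larger shares under combo, and Ptgs2 was found in 63.5% and 37.8% of thinned mature neutrophils against 2.17% or less of the other cells.

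Ptgs2 detection in mature neutrophils stood above the level in T and B cells, which marks free RNA. At 1000 UMIs per cell, Ptgs2 was found in 0.595% (0.429 to 0.804) of T cells under lenvatinib and 0.806% (0.581 to 1.09) under combo, and in 0.649% and 1.14% of B cells. Granule-high neutrophils, which are at an earlier stage, had it in 1 of 46 and 5 of 250 cells (2.17% and 2.00%). With all UMIs the shares were 2.69% and 3.70% in T cells and 21.7% and 20.4% in granule-high cells, whose depth was greater.

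The content of S100a8 and S100a9, the calprotectin genes, moved with both the library and the class. These 2 genes took a median of 3.95% of UMIs in Ptgs2-positive cells under lenvatinib and 10.6% under combo, against 8.15% and 22.2% in Ptgs2-negative cells. Of mature neutrophils, 11.5% had 20% or more under lenvatinib and 38.9% under combo. In cells with 2% to 10% the Ptgs2-positive share was 78.6% (72.3 to 84.1) of 201 under lenvatinib and 74.2% (68.5 to 79.3) of 267 under combo. In cells with 20% or more it was 50% (36.6 to 63.4) of 58 and 39.2% (34.4 to 44.3) of 390. Intervals of the libraries overlapped in each of these ranges. After thinning to 1000 UMIs the values were 68.2% (61.1 to 74.7) against 56.7% (50.4 to 62.7) at 2% to 10% and 66.3% (55.9 to 75.7) against 36.6% (30.3 to 43.3) at 10% to 20%, so combo was lower at like content, with intervals that separated at 10% to 20%.

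**Figure D2:**
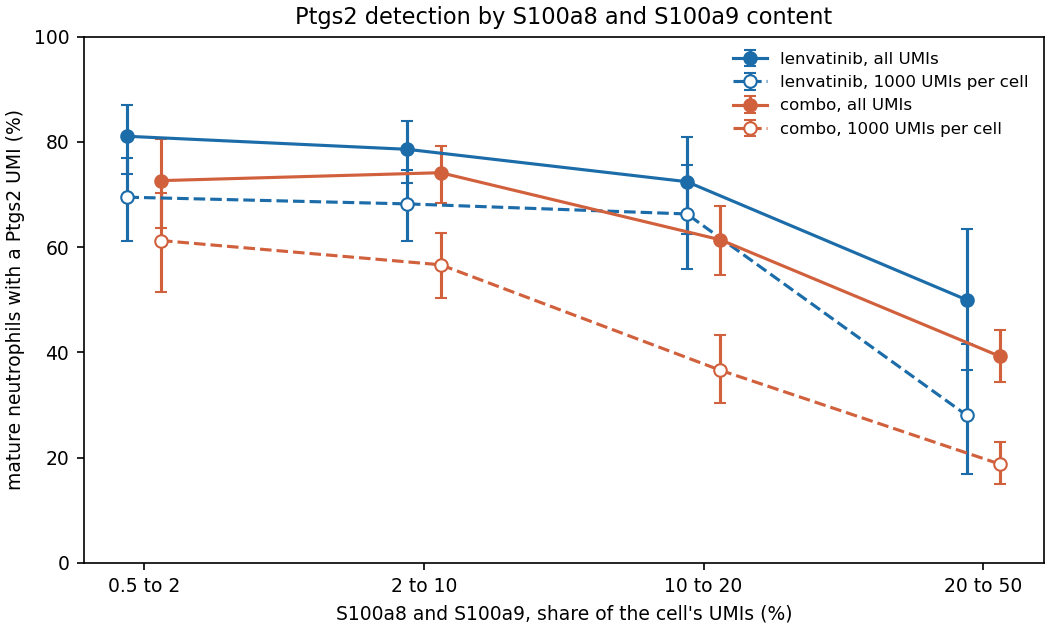
Share of mature neutrophils with a Ptgs2 UMI (%) in 4 ranges of S100a8 and S100a9 content (% of the cell's UMIs), for lenvatinib (blue) and combo (orange), with all UMIs (filled) and 1000 UMIs per cell (open). Lines are exact 95% intervals; the share fell to 50% and 39.2% with all UMIs at the highest content.

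Ptgs2 chose the cells, so its level is given as a description. Its count per cell ran from 1 to 61 with a median of 6 under lenvatinib, and from 1 to 53 with a median of 4 under combo. Summed over the cells it was 2738 CPM and 1373 CPM, and the cells held 46.6% and 41.2% of all Ptgs2 UMIs of kept cells. At the limit of the rule were 61 and 109 cells with 1 Ptgs2 UMI, in which Il1b was 5927 and 7770 CPM, against 10586 and 12827 CPM in cells with 5 or more. Just inside the S100 limit (0.5% to 0.6%) were 6 and 10 cells with Il1b at 5409.5 and 17638 CPM, and just outside (0.4% to 0.5%) 9 and 14 cells with 7802 and 12831 CPM. The limit on Csf1r, the macrophage growth factor receptor, alone kept out 91 and 210 cells. Those with 1 Csf1r UMI had Il1b at 10354 and 8834 CPM and C1qa, a macrophage complement gene, at 16.3 and 1.14 CPM. All 91 and 210 had Il1b at 9233 and 6487 CPM. The lysozyme gene Lyz2 was 1044 and 8888 CPM in all of them, and 1020 and 4023 CPM in those with 1 Csf1r UMI. In Ptgs2-positive cells it was 1290 and 3259 CPM with 1 Ptgs2 UMI, and 583 and 1415 CPM with 5 or more.

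Ptgs2-positive cells were then set against Ptgs2-negative cells of the same library, with genes of at least 50 CPM in 1 class and 10 counts over both. A gene past 2-fold was called higher or lower, with no test, and since Ptgs2 split the classes in the same cells these values are a description. Under lenvatinib 112 of 2911 genes (3.85%) were higher and 168 (5.77%) lower, and under combo 60 of 2137 (2.81%) were higher and 14 (0.655%) lower. The median log2 ratio was 0.07 and 0.24, and ratios divided by their median gave 24 genes higher and 38 lower under combo. Of 2059 genes compared in both libraries, 22 were higher in both, which is 35.5% of those higher under lenvatinib and 40.7% of those under combo.

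Of the interleukin-1 and inflammasome list, 3 of 9 genes compared were past 2-fold higher in Ptgs2-positive cells under lenvatinib (Il1a, Il1b and Il1rn) and 0 of 8 under combo, with median log2 ratios of 0.68 and 0.75. Il1b was 8889 against 4308 CPM under lenvatinib, a ratio of 2.06 (1.97 to 2.17), and 10678 against 5619 CPM under combo, a ratio of 1.90 (1.86 to 1.94). Il1rn, the receptor antagonist that blocks interleukin-1, was 620 against 259 CPM and 204 against 107 CPM, with ratios of 2.40 and 1.91. Nlrp3, the inflammasome sensor that leads to cleavage of pro-interleukin-1 beta, had ratios of 1.60 and 1.86. Il1a had 16.1% of its lenvatinib UMIs in 1 cell.

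Of chemokine genes, 5 of 8 were higher under lenvatinib and 4 of 9 under combo, and none lower, with a median log2 ratio of 1.19 and 0.79. Cxcl2, the most abundant cytokine transcript of these cells, was 21102 against 11980 CPM under lenvatinib and 31513 against 18207 CPM under combo, with ratios of 1.76 (1.71 to 1.81) and 1.73 (1.71 to 1.75). Ccl3 and Ccl4, which draw monocytes and lymphocytes, had ratios of 2.47 (2.22 to 2.75) and 3.16 (2.83 to 3.53) under lenvatinib, and 2.14 (1.97 to 2.32) and 2.17 (2.01 to 2.34) under combo. Cxcl1 was 62.3 against 2.19 CPM, a ratio of 28.4 (4.93 to 1138) that rests on 13 positive cells, and 132 against 21.9 CPM, a ratio of 6.02 (4.53 to 8.13), with 47 positive cells.

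Of other cytokines and growth factors, 3 of 10 were higher under lenvatinib and 4 of 9 under combo. Tnf was 573 against 230 CPM under lenvatinib (ratio 2.49) and 178 against 107 CPM under combo (ratio 1.67). Il23a, a subunit of interleukin-23, had ratios of 2.34 and 2.25, and Vegfa, the endothelial growth factor gene, 1.97 and 2.15. Spp1, the osteopontin gene, had ratios of 7.28 and 2.45, with 48.1% of its lenvatinib UMIs in 1 cell.

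Of NF-kB pathway and feedback genes, 3 of 16 were higher under lenvatinib and 2 of 15 under combo, and of immediate early genes 5 of 18 and 2 of 17. Nfkbia, the inhibitor that NF-kB itself induces, was 5280 against 2432 CPM under lenvatinib and 5430 against 3113 CPM under combo, with ratios of 2.17 and 1.74. Tnfaip3, a further feedback gene that encodes A20, had ratios of 2.06 and 2.15. Egr1, an early transcription factor gene of the ERK pathway, was 3213 against 1555 CPM and 825 against 401 CPM, with ratios of 2.07 (1.91 to 2.24) and 2.06 (1.91 to 2.22). No gene of either list was past 2-fold lower.

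Of survival and apoptosis genes, 4 of 13 were higher under lenvatinib and 6 of 11 under combo, and none lower. Bcl2a1b, of the anti-apoptotic A1 family, was 910 against 226 CPM under lenvatinib and 453 against 175 CPM under combo, with ratios of 4.03 and 2.59. Bcl2a1a, Bcl2a1b and Bcl2a1d are near-identical copies, and reads may have been split between them. Mcl1, the main survival factor of neutrophils, had ratios of 1.37 and 1.28. Of chemotactic and growth factor receptors, 1 of 13 and 1 of 12 were higher, in both cases Ccrl2, and of adhesion genes 1 of 10 (Icam1) and 0 of 9. Ccrl2, a non-signaling chemerin receptor, was 2094 against 877 CPM and 1581 against 700 CPM, with ratios of 2.39 and 2.26. Clec4n, which encodes the fungal sugar receptor dectin-2, had ratios of 2.60 and 3.30. Icam1, an adhesion molecule, had ratios of 2.60 and 1.96, and Cxcr2 of 1.52 and 1.2.

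Of tertiary granule and late maturation genes, 4 of 9 were lower under lenvatinib (Ly6g, Mmp8, Retnlg and Wfdc21) and 0 of 10 under combo, where the median log2 ratio was -0.60. Of secondary granule genes, 3 of 4 and 2 of 4 were lower. Retnlg, a resistin-like gene of mature neutrophils, was 2548 against 9542 CPM under lenvatinib and 10317 against 20272 CPM under combo, with ratios of 0.267 (0.255 to 0.280) and 0.509 (0.502 to 0.516). Lcn2, the secondary granule lipocalin, had ratios of 0.339 and 0.541, Mmp8, the neutrophil collagenase, 0.289 and 0.501, and Ly6g, the surface antigen of mouse neutrophils, 0.246 and 0.551. Mmp9 was 1169 against 1300 CPM and 1190 against 1404 CPM, ratios of 0.899 and 0.847. Cd177, a surface partner of proteinase 3, was past 2-fold lower in both, at 0.154 and 0.392.

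**Figure D3:**
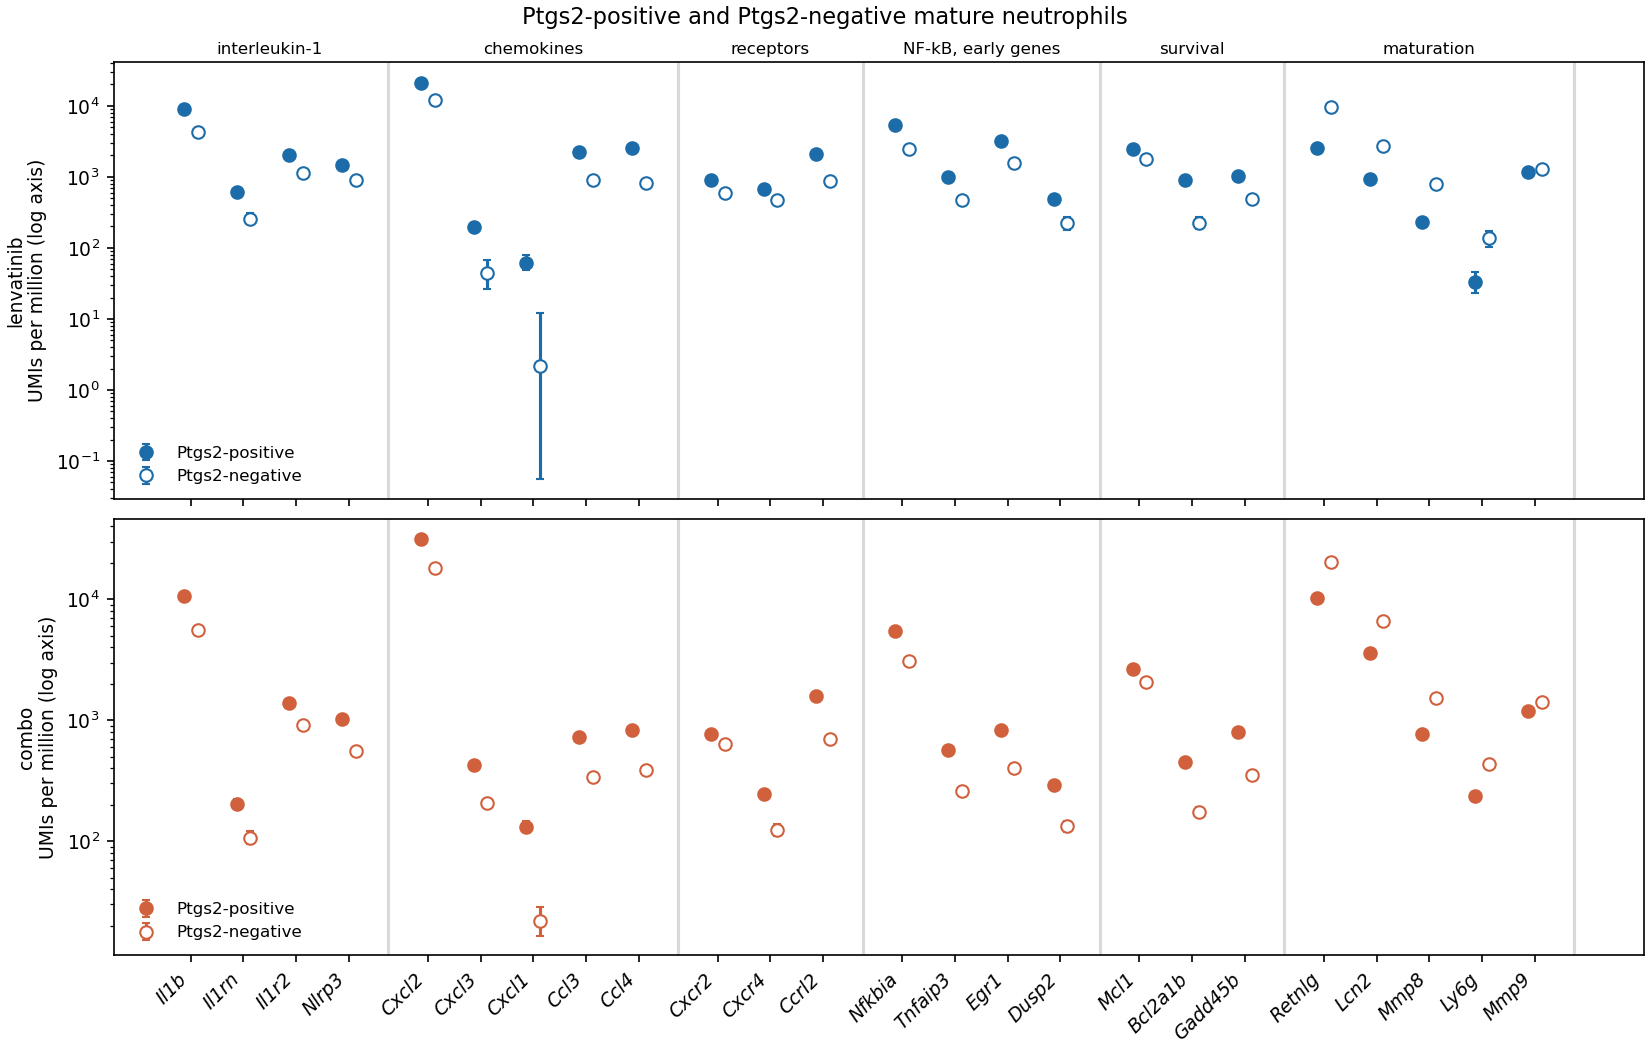
CPM (log axis) of genes grouped by role in Ptgs2-positive (filled) and Ptgs2-negative (open) mature neutrophils, with lenvatinib above and combo below. Lines are exact 95% Poisson intervals. Il1b, Cxcl2, Ccl3 and Egr1 lie higher and Retnlg, Lcn2 and Mmp8 lower in Ptgs2-positive cells of both libraries.

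Several leading ratios rested on few cells. The Ptgs2-negative cells under lenvatinib held some with primary granule genes, with Elane, the neutrophil elastase gene, at 2723 CPM against 4.51 CPM. Klra4, an NK cell receptor, was 54.1 against 2.19 CPM with 30% of its UMIs in 1 cell, and Hspa1b under combo had 80.1% in 1 cell. Cd74, of antigen presentation, was 261 against 70.1 CPM under combo with 51.5% in 1 cell. Without cells that had 5 or more UMIs of the T and NK, B and plasma, dendritic, basophil and mast cell or primary granule lists (27 positive and 10 negative under lenvatinib, 21 and 10 under combo), 108 genes were higher and 68 lower under lenvatinib and 57 and 14 under combo. Without them Il1b had ratios of 1.77 and 1.90, Ccl3 of 2.17 and 2.20 and Retnlg of 0.215 and 0.524. No gene of the primary granule list then passed the filter, which follows from the removal, since it used that list. The monocyte and macrophage list was not used. The words without cells of other types refer to this removal only.

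Ratios changed when cells of like S100 content were taken. Among cells with S100a8 and S100a9 from 2% to 10%, Il1b had a ratio of 2.50 under lenvatinib (158 against 43 cells) and 1.11 under combo (198 against 69 cells). Ccl3 had 3.19 and 0.878, Egr1 2.62 and 0.930, and Tnfaip3 2.94 and 1.16. Cxcl1 had ratios of 6.77 and 3.41 and Cxcl2 of 2.25 and 1.30. Retnlg was 1.34 and 0.737. The median log2 ratio was 0.81 and 0.02 for the interleukin-1 and inflammasome list, 0.83 and 0.04 for NF-kB genes, and 0.66 and -0.01 for survival and apoptosis genes. All genes had medians of 0.04 and 0.00. Of survival and apoptosis genes 0 of 12 were higher under combo and 1 was lower. In this range Ccl3 and Egr1 were thus below 1 under combo and Retnlg was above 1 under lenvatinib. The 43 Ptgs2-negative cells of lenvatinib in this range had Elane at 7685 CPM and Mpo, the myeloperoxidase gene, at 5057 CPM, against 6.99 CPM each in the Ptgs2-positive cells, and 5 of 5 primary granule and 7 of 7 cycling genes compared were lower in the Ptgs2-positive cells. The part of these 43 cells in the lenvatinib ratios was not tested. Under combo 4 of 7 monocyte and macrophage genes compared were lower in the Ptgs2-positive cells of this range and 0 higher. Their median log2 ratio was -1.24, and of all genes 89 of 2708 were lower. Ccr2 was 26.5 against 94.5 CPM and Vcan 6.96 against 61.6 CPM. The part of such transcripts in the combo ratios was not tested. The difference between libraries was not tested.

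Of interferon-stimulated genes 3 of 19 were higher under lenvatinib (Ifit2, Ifit3 and Isg20), with a median log2 ratio of 0.72, and 0 of 17 under combo, with a median of -0.06. Among cells with S100a8 and S100a9 from 2% to 10%, 6 of 19 were higher under lenvatinib, against 447 of 3232 of all genes. Under combo 10 of 19 were lower in that range, with a median of -1.01, against 89 of 2708 of all genes. The cause was not tested. Over all cells Isg15, a ubiquitin-like protein gene, had ratios of 2.00 (just under 2-fold) and 1.07. Of hypoxia and glycolysis genes 2 of 19 were higher under lenvatinib and 0 of 20 under combo. Cdkn1a, which encodes the p21 inhibitor of cyclin-dependent kinases, was 298 against 149 CPM under lenvatinib and 390 against 164 CPM under combo, with ratios of 2.00 (just under 2-fold) and 2.37. Of CDK4/6, D cyclin, RB and inhibitor genes 3 of 7 were lower under lenvatinib (Ccnd1, Cdk6 and Cdkn2d) and 1 of 5 was higher under combo (Cdkn1a). Without cells of other types 1 of 5 (Cdkn2d) was lower under lenvatinib, and with every cell weighted equally 0 of 5.

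Of prostaglandin and leukotriene genes other than Ptgs2, none of 7 compared under lenvatinib and none of 6 under combo was past 2-fold higher. Ptges, the inducible prostaglandin E synthase gene, had no UMI in 378 and 576 cells, which allows, at 3 counts, up to 0.794% and 0.521% of cells with a UMI. It was found in 1 of 127 and 3 of 426 Ptgs2-negative cells. Ptges3 was 118 against 140 CPM under lenvatinib and 87.1 against 50.1 CPM under combo. Pla2g7, which degrades platelet-activating factor, had ratios of 1.55 and 1.47, and Alox5ap, the helper protein of 5-lipoxygenase, 1.04 and 0.805. Lta4h, which makes leukotriene B4, was 28.9 against 149 CPM under lenvatinib, and 23.1 against 31.3 CPM, under the limit for a comparison, without cells of other types. Under combo it was too low to compare.

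The Ptgs2-positive cells of the 2 libraries were next compared with each other. Of 2654 genes, 80 (3.01%) were higher and 313 (11.8%) lower under combo by 2-fold, and the median log2 ratio of combo to lenvatinib was -0.39. In Ptgs2-negative cells 77 of 2694 (2.86%) were higher and 737 (27.4%) lower, with a median of -0.57. Because the median gene was itself lower, ratios divided by their median gave 172 genes higher and 106 lower in Ptgs2-positive cells. A ratio near 1 therefore lies above the median gene.

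Of secondary granule genes 3 of 4 were higher under combo, of tertiary granule and late maturation genes 6 of 10, and of stefin A and serine protease inhibitor genes 5 of 6, and none was lower. Retnlg was 2548 CPM under lenvatinib and 10317 under combo, a ratio of 4.05 (3.90 to 4.21), Lcn2 was 918 and 3603 CPM, a ratio of 3.93 (3.68 to 4.19), and Ly6g was 33.4 and 238 CPM, a ratio of 7.13 (5.11 to 10.2). Stfa1 and Stfa2, which encode stefin A inhibitors of cysteine cathepsins, were 48.7 and 11.7 CPM under lenvatinib and 2544 and 1848 CPM under combo. They were found in 13 and 4 of 378 cells against 247 and 246 of 576, and their ratios were 52.2 (40.0 to 69.6) and 158 (92.0 to 296). In T cells, which mark free RNA, Stfa1 was 0.0930 and 12.7 CPM. The stefin A genes are near-identical copies, so the split between them is uncertain. Ptgs2-negative cells had ratios of 55.3 for Stfa1 and 26.1 for Stfa2. In them 2 of 5 secondary granule, 5 of 10 tertiary granule and late maturation and 4 of 6 stefin A and inhibitor genes were higher. Cebpe and Serpinb1a of these lists were lower.

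Of interleukin-1 and inflammasome genes 0 of 9 were higher under combo and 1 (Il1rn) was lower, with a median log2 ratio of -0.47, and of 9 chemokines 3 were higher (Ccl2, Cxcl1 and Cxcl3) and 2 lower (Ccl3 and Ccl4). Il1b had a ratio of 1.2 (1.17 to 1.23), Cxcl2 of 1.49 (1.47 to 1.52), Cxcl1 of 2.12 (1.63 to 2.78) and Cxcl3, a further ligand of CXCR2, of 2.17 (1.87 to 2.52). Il1rn was 620 and 204 CPM, a ratio of 0.330 (0.294 to 0.369), while Il1a had a ratio of 0.608, Il1r2 of 0.694 and Nlrp3 of 0.702. Ccl3 was 2210 and 725 CPM and Ccl4 2554 and 836 CPM, both with a ratio of 0.328. Il1rn, Ccl3 and Ccl4 were also past 2-fold lower in Ptgs2-negative cells, and Ccl2, Cxcl3 and Cxcl10 were higher there. In Ptgs2-positive cells Nos2, the inducible nitric oxide synthase gene, had 0 UMIs under lenvatinib and 57 UMIs in 33 of 576 cells under combo. This is at least 7.74-fold higher against a floor of 3 counts. Ptgs2-negative cells likewise had 0 UMIs under lenvatinib and 58 UMIs in 34 of 426 cells under combo.

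Of other cytokines and growth factors 6 of 10 were lower under combo and none higher, with a median log2 ratio of -1.34, and of immediate early genes 5 of 18 were lower. In Ptgs2-negative cells 5 of 8 (median -1.16) and 4 of 17 were lower, and 0 and 1 higher. Of all genes compared 11.8% were lower in Ptgs2-positive and 27.4% in Ptgs2-negative cells, so 4 of 17 was not above the share of all genes. Egr1, Tnf, Thbs1, Csf1, Vegfa and Cxcr4 were past 2-fold lower in both classes. In Ptgs2-positive cells Egr1 was 3213 and 825 CPM, a ratio of 0.257 (0.243 to 0.271), and Tnf was 573 and 178 CPM, a ratio of 0.311 (0.275 to 0.350). Thbs1, the gene of the matrix protein thrombospondin-1, was 607 and 105 CPM, a ratio of 0.173 (0.15 to 0.199), and Csf1, the macrophage growth factor gene, was 407 and 91.2 CPM, a ratio of 0.224. Vegfa had a ratio of 0.474 and Cxcr4, a receptor that retains neutrophils in bone marrow and tissue, of 0.359. NF-kB genes did not move past 2-fold in 15 of 15, and Nfkbia had a ratio of 1.03 (0.998 to 1.06).

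Interferon, checkpoint and cell cycle genes were mixed. Isg15 and Rsad2, which interferon induces, had ratios of 0.393 and 0.335. Of the listed genes 6 of 19 were lower (0 of 17 in Ptgs2-negative cells, where 2 were higher), whereas Ifitm1 was 3007 and 6994 CPM, a ratio of 2.33 (2.24 to 2.41). Cd274, the gene of PD-L1, was 190 and 84.2 CPM, a ratio of 0.442, and was past 2-fold lower in Ptgs2-negative cells as well. Glycolysis genes Gapdh and Ldha had ratios of 2.12 and 2.08, with 4 of 20 hypoxia and glycolysis genes higher and none lower. Of CDK4/6 genes, Cdk4 and Cdk6 were 20.8 and 25.3 CPM under lenvatinib and 9.19 and 16.5 CPM under combo, too low to compare. Of the 5 genes of the CDK4/6, D cyclin, RB and inhibitor list that were compared, 1 was higher (Cdkn2d) and 1 lower (Ccnd2). Without cells of other types 0 were higher and 1 lower. Ccnd2, a D cyclin, was 230 and 90.1 CPM (ratio 0.392), Ccnd3 162 and 182 CPM (ratio 1.13), and Cdkn1a 298 and 390 CPM (ratio 1.31). The cycling gene list summed to 101 CPM and 55.9 CPM, and none of its genes passed the filter.

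Part of these differences moved with S100 content. Among cells with S100a8 and S100a9 from 2% to 10% (158 and 198), the median log2 ratio was -0.11, and 123 genes were higher and 155 lower. In this range Retnlg had a ratio of 1.79 and Lcn2 of 1.75, and Stfa1 of 15.2. Ccl3 had 0.395, Egr1 0.328, Thbs1 0.244, Tnf 0.489 and Il1rn 0.420, all lower as in the whole set, while Cd274 had 0.910 and Vegfa 0.832. In this range Stfa1, Ccl3 and Egr1 were past 2-fold and Cd274 and Vegfa were not. The part of S100 content in the whole difference was not tested.

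**Figure D4:**
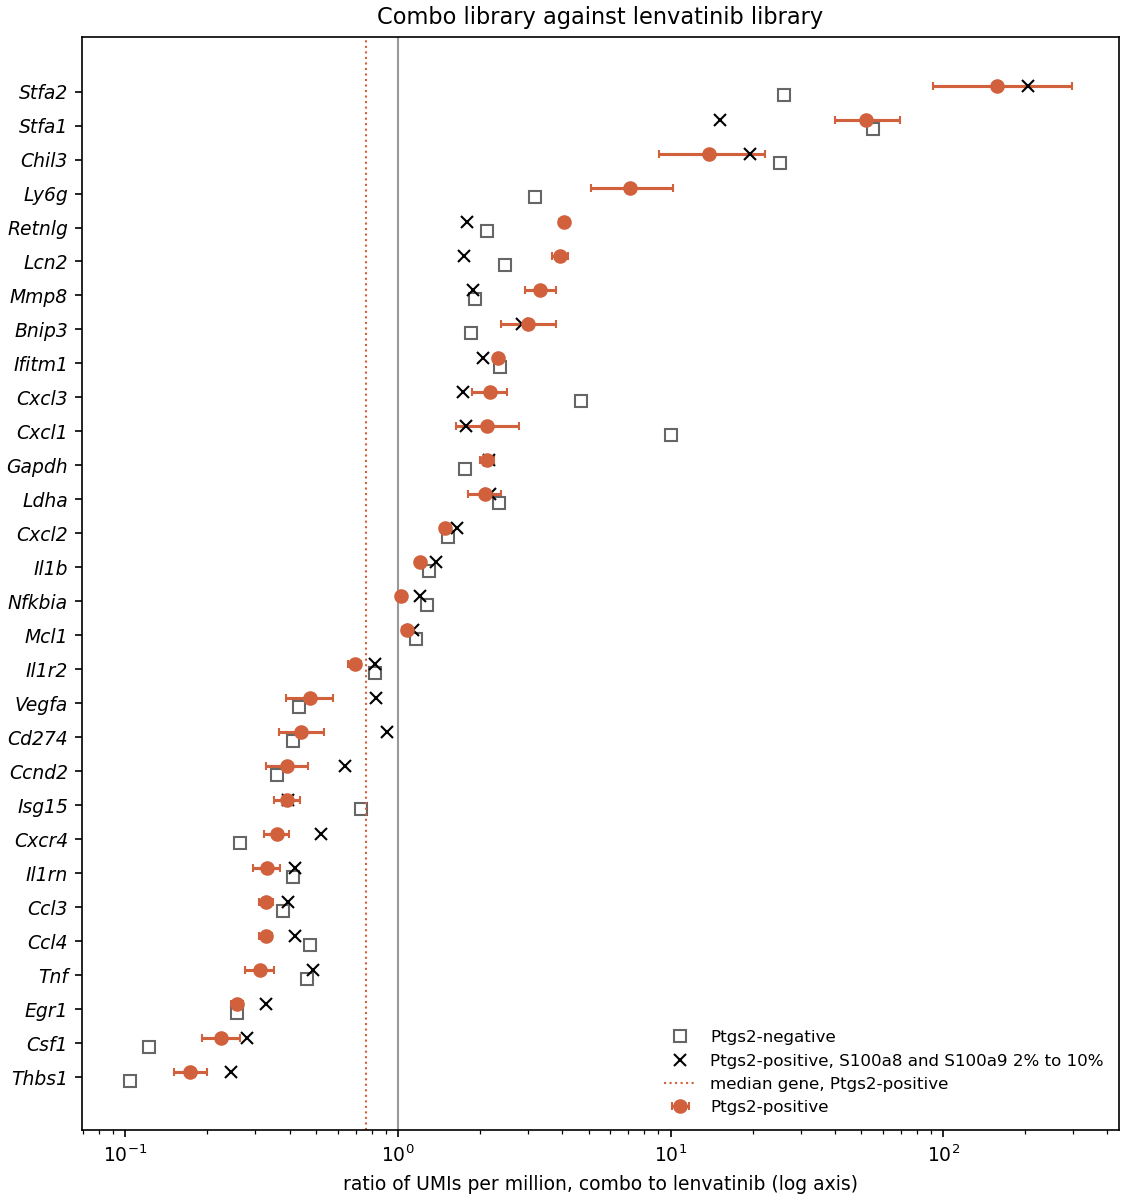
Ratio of CPM of combo to lenvatinib (log axis) for named genes in Ptgs2-positive cells (orange points with exact 95% intervals), in Ptgs2-negative cells (squares) and in Ptgs2-positive cells with S100a8 and S100a9 from 2% to 10% (crosses). The dotted line marks the median gene of Ptgs2-positive cells; stefin A and late granule genes lie to the right and Thbs1, Csf1 and Egr1 to the left in both classes.

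The Ptgs2-positive cells were also split by their level of Ptgs2. Since Ptgs2 chose the cells and defined the Ptgs2-negative class, the split is a description and no further support for that comparison. The cells of each library were split into 3 equal parts by Ptgs2 UMIs per 1000 UMIs, with 126 and 192 cells per part. From the low to the high part, Il1b was 6172, 8720 and 12780 CPM under lenvatinib and 7160, 11704 and 16145 CPM under combo. Ccl3 was 1471, 2195 and 3229 CPM and 465, 794 and 1139 CPM. Both genes were higher in each further part. Egr1 was 2.02-fold and 3.44-fold higher in the high than in the low part, Cdkn1a 2.23-fold and 3.63-fold, and Ccrl2 1.84-fold and 2.92-fold. Retnlg was 4034, 1778 and 1465 CPM under lenvatinib and 15464, 8836 and 2292 CPM under combo, a ratio of 0.363 and 0.148. Mmp9, Thbs1 and Ldha had ratios from 0.843 to 1.08 in both libraries. Cells of the high part had fewer UMIs under combo (median UMIs 3241 against 5493.5 in the low part) and about as many under lenvatinib (2362.5 against 2563), and the part of depth was not tested.

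**Figure D5:**
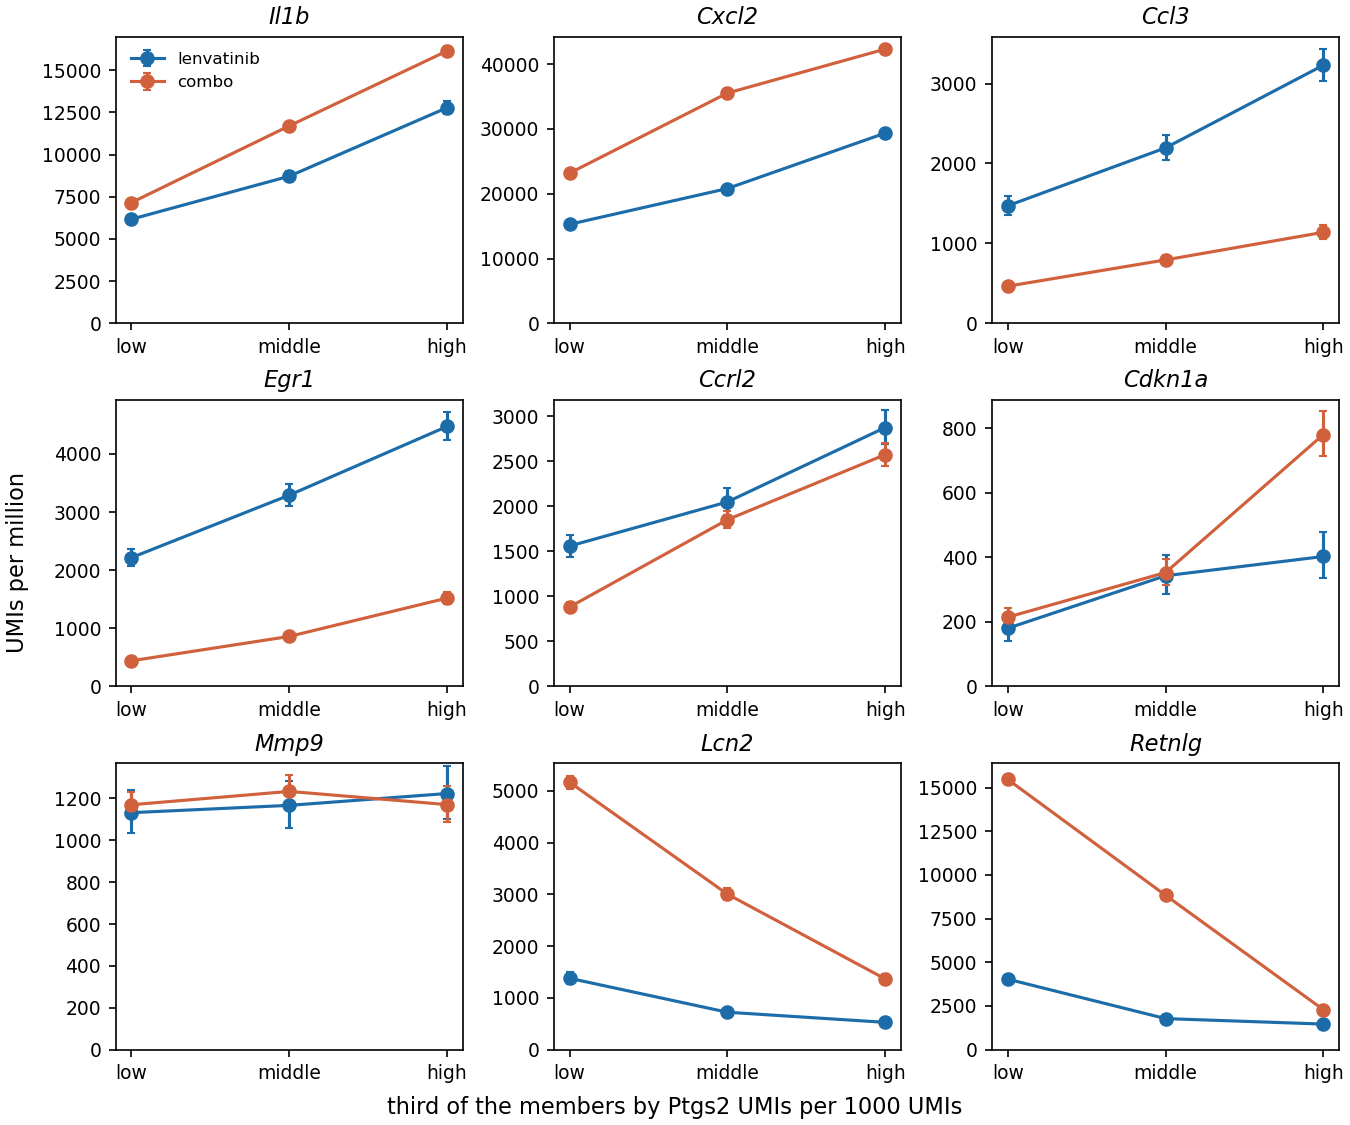
CPM of 9 genes in the low, middle and high part of the Ptgs2-positive cells by Ptgs2 UMIs per 1000 UMIs, for lenvatinib (blue, 126 cells per part) and combo (orange, 192 cells per part). Lines are exact 95% Poisson intervals; Il1b, Cxcl2, Ccl3, Egr1, Ccrl2 and Cdkn1a lie higher and Lcn2 and Retnlg lower in the high part of both libraries.

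The split by S100a8 and S100a9 content gave the opposite gradient. From the part with least to the part with most, Retnlg was 158 to 6888 CPM under lenvatinib and 1002 to 19046 CPM under combo, and Lcn2 was 130 to 2190 CPM and 638 to 6241 CPM. Tnf was 836 to 243 CPM and 289 to 79.2 CPM, and Icam1 313 to 106 CPM and 297 to 58.8 CPM. Il1b was 8640 to 8199 CPM under lenvatinib, a ratio of 0.949, and 13399 to 7725 CPM under combo, a ratio of 0.577. Il1b thus hardly varied with S100 content under lenvatinib and did so under combo.

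Detection per cell at 1000 UMIs showed how widely each transcript was shared. Il1b was found in 95.6% (93.0 to 97.5) of 367 cells under lenvatinib and 98.2% (96.8 to 99.2) of 571 under combo, and Il1b together with Cxcl2 in 93.7% and 97.7%. Ccl3 was found in 54.0% (48.7 to 59.1) and 30.6% (26.9 to 34.6), and Retnlg in 38.4% (33.4 to 43.6) and 69.2% (65.2 to 72.9). Retnlg and Ccl3 occurred in the same cell in 16.1% and 18.9%. Tnf was found in 30.8% and 15.4%, and Cxcl3 in 8.17% and 18.2%. At the same 1000 UMIs, B cells had Il1b in 3.03% and 4.36%, Cxcl2 in 3.46% and 17.8%, Retnlg in 0.649% and 11.8%, Ccl3 in 5.19% and 2.28% and Tnf in 0.866% and 0.949%. Each share in the Ptgs2-positive cells was above that in B cells of the same library, and the background of Cxcl2 and Retnlg was higher under combo. Median depth before thinning was 3366 and 3460 UMIs in B cells. Siglecf was found in 3 and 15 Ptgs2-positive cells and in 0 of 462 and 0 of 527 B cells (which allows up to 0.649% and 0.569%).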

How the data were processed

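Live CD45+ cells of 2 liver tumor samples were profiled by 10x 3′ single-cell RNA sequencing, 1 library per condition. The deposited values are UMI counts that had not been normalized, in a matrix of genes by barcodes, and every barcode held at least 500 UMIs. The submitters' processing notes and the methods name Cell Ranger 5.0.1 and mm10, whereas the matrix header names 6.0.1. Their Seurat clustering and SingleR labels were not repeated. Barcodes with over 6000 genes or over 25% mitochondrial UMIs were removed, and no doublet was removed except in an alternative with Scrublet (expected rate 6%).

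Counts were summed per class and library and divided by the class total (CPM). Genes with at least 50 CPM in 1 class and 10 counts over both were compared at 2-fold. A class at 0 was set to 3 counts. Shares have exact Clopper-Pearson intervals, levels exact Poisson intervals and ratios exact conditional intervals, all at 95% and for counting error only. With 1 library per condition no test was made. For background, T cells had 2 or more Cd3 UMIs and B cells 2 or more Cd79a UMIs, with S100a8 and S100a9 under 0.5%. Detection was compared after thinning each cell to 1000 UMIs.

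The cells, the 30 lists (388 genes) and the comparisons were chosen with earlier results of these data known. Genes were named from the lists, from the 15 highest and 15 lowest ratios of Ptgs2-positive to Ptgs2-negative cells under lenvatinib and of combo to lenvatinib, and from the 20 highest CPM, leaving out mitochondrial, ribosomal protein, hemoglobin and sex-linked genes and those of the rule. Near-limit cells, Nos2, Klra4, Siglecf and the genes used at S100 ranges were also given, some chosen after their values were seen. There were 12 alternatives set at the start and 4 added after seeing the data. Scripts were tested on simulated data. Promoters came from RefSeq (GRCm38.p6). Python 3.11.15, numpy 2.4.6, scipy 1.17.1, pandas 2.3.3, scanpy 1.11.5 and matplotlib 3.10.9 were used.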

Additional observations from a re-analysis of the deposited data

Results flagged for a closer look

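Irf8, a transcription factor gene of monocytes, dendritic cells and B cells, was past 2-fold in opposite directions in the libraries. Its ratio of Ptgs2-positive to Ptgs2-negative cells was 0.372 under lenvatinib (134 against 362 CPM) and 2.17 under combo (84.9 against 39.2 CPM). The difference was not tested. In Ptgs2-negative cells, 1 cell held 31.5% of the Irf8 UMIs under lenvatinib and 1 cell held 41.0% under combo. Without cells that had 5 or more UMIs of a list of another type, Irf8 was 32.9 against 28.2 CPM and 17.2 against 14.2 CPM, with ratios of 1.17 and 1.21. This removal used the primary granule list too and did not use the monocyte and macrophage list.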

How the results depend on the processing

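The share of Ptgs2-positive cells was higher under combo in all 11 alternatives run, at a ratio of 2.33 with S100a8 and S100a9 at 2% or more and 1.53 in cells with 2% to 10%. Of mature neutrophils, the Ptgs2-positive share under lenvatinib was 63.8% with cells thinned before the rule and 78.6% in the 2% to 10% range. Under combo it was 52.3% with 2 or more Ptgs2 UMIs, 61.1% with Camp, Ngp and Ltf under 0.2%, 43.5% with thinned cells and 74.2% in the 2% to 10% range. Counts of genes past 2-fold moved more. For Ptgs2-positive against Ptgs2-negative cells under lenvatinib, 112 were higher in the report, against 183 with S100 at 2% or more, 60 with the stricter granule limit, 54 with no limit on other lineages, 669 with no CPM limit, 62 at 100 CPM, 65 with cells weighted equally and 447 in the S100 range. The 168 lower became 273 with no cell filter, 105 with the stricter granule limit, 821 with no CPM limit, 75 at 100 CPM, 68 without cells of other types, 73 with equal weights and 658 in the S100 range. Under combo the 60 higher became 91 with 2 or more Ptgs2 UMIs, 29 with the stricter granule limit, 29 with no limit on other lineages, 1035 with no CPM limit, 31 at 100 CPM, 38 with equal weights, 24 when divided by the median and 94 in the S100 range. The 14 lower became 28 with 2 or more Ptgs2 UMIs, 9 with no limit on other lineages, 36 with thinned cells, 247 with no CPM limit, 38 when divided by the median and 89 in the S100 range. Of combo against lenvatinib, the 80 higher became 381 with no CPM limit, 172 when divided by the median and 123 in the S100 range, and the 313 lower became 1840, 106 and 155, and 165 at 100 CPM. In the S100 range these ratios of genes past 2-fold changed direction under combo: Ccl3 0.878, Ccl4 0.986, Il23a 0.923, Csf1 0.949, Ccrl2 0.948, Bcl2a1a 0.756 and Egr1 0.930. Of genes within 2-fold, Tnf (0.744), Icam1 (0.920), Nfkbia (0.968) and Il1a (0.608) also fell below 1 there. Under lenvatinib Retnlg (1.34), Mmp8 (1.76), Siglech (2.26) and Irf8 (11.4) rose above 1 there, as did Siglech (9.42) with S100 at 2% or more. Cd74 under combo fell below 1 (0.962) with thinned cells. The cause of these changes was not tested. The S100 range, the removal of cells of other types, equal weights and division by the median were chosen after seeing the data. No paired analysis was possible because each condition had 1 library and no test was made. Depth limits the Ptgs2-negative cells under lenvatinib most, with 127 cells and 456075 UMIs, where 3 counts are 6.58 CPM.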
